A study of Homo sapiens with 3 samples.

Results

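The hairpins of miR-221 (gene MIR221) and miR-222 (gene MIR222) are a pair of neighbouring miRNA precursors on the minus strand of human chromosome X. They were taken from lists of RNA sites bound by DICER, as every cluster whose sense annotation names hsa-mir-221 or hsa-mir-222, together with any cluster on the same strand within 5 kb of either. Each hairpin had exactly 1 cluster in each of the 4 lists, and no further cluster lay within 5 kb on either strand. These 2 clusters stood among 11577 in replicate 1, 18065 in replicate 2, 5099 in replicate 3 and 8469 in the series-wide list. The pair was chosen by its conversion counts in these same lists, where miR-221 was known to stand near the top, so the values are given as a description, with no test.

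The libraries came from HEK293, an established human embryonic kidney line, in its Flp-In T-Rex form with a FLAG-tagged DICER transgene; in such cells an inserted gene is under a tetracycline-regulated promoter, and the labels give no induction. All 3 were replicates of 1 group, PAR-CLIP with RNase T1, in which a photoreactive uridine analogue is crosslinked to the bound protein and read as a T-to-C conversion. Nothing in the labels tells if these were separate cultures, and the spread between them may be technical. Neither an untagged control nor RNA levels were analysed here, so binding by DICER and abundance of the RNA cannot be told apart.

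Across the libraries, the replicate lists held 595487 to 1306125 conversions, of which 82044 to 208066 lay in hairpin clusters. Replicate 3 had the fewest clusters and the most copies, with 33.8 reads per distinct read over all its clusters, against 18.6 and 17.8 in replicates 1 and 2. A list of 11 miRNA genes typical of other tissues was also looked up. Of these, 8 were without a cluster throughout, liver MIR122 and muscle MIR1-1 included. The share of all miRNA genes without a cluster was not counted, so this does not check the cell line. The blood miRNAs MIR142 and MIR144 had 125 and 62 conversions in replicate 1, 23 and 3 in replicate 2 and none in replicate 3. MIR451A had 7 in replicate 1 only, and MIR223, also of blood, had none in any replicate.

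DICER cuts the loop off a precursor hairpin in the cytoplasm and leaves a duplex, of which 1 strand is loaded into an Argonaute protein. The 2 hairpins are made from 1 primary transcript, and their 3p strands carry the same seed, the bases that pair with target mRNAs. miR-221 and miR-222 are known for holding down the cell cycle inhibitor p27, the product of CDKN1B, and for promoting proliferation in many tumour cells.

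The strands miR-221-3p, miR-222-3p and miR-222-5p, as RefSeq (GRCh38.p14) gives them, are shown first, 5' to 3', with the seed (bases 2 to 8) in capitals, because the shared seed is what ties the pair together.

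hsa-miR-221-3p: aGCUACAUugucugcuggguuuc

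hsa-miR-222-3p: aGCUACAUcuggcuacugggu

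hsa-miR-222-5p: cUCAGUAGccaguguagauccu

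Among 2370 mature names in that table, the seed GCUACAU belonged to miR-221-3p and miR-222-3p alone. Their first 8 bases are the same, and 18 of 24 aligned positions are identical. The seed of miR-222-5p, UCAGUAG, was found in no other mature name of the table.

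The hairpins follow as RNA, 5' to 3', from the minus strand of GRCh38.p14, with the 3 strands above in capitals, to show what the clusters were annotated to. hsa-miR-221-5p is not printed or marked here, so the 5' arm of hsa-mir-221 is all in lower case. The first is at chrX:45746157-45746266 and the second at chrX:45747015-45747124.

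hsa-mir-221: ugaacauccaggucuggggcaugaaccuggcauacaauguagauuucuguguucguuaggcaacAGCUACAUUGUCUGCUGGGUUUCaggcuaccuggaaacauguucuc

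hsa-mir-222: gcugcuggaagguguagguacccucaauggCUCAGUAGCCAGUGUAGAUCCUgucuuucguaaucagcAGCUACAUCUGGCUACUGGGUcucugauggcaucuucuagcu

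The 2 hairpins are alike in length and in uridine content. Both are 110 nt long and both hold 33 uridines, the base at which conversions arise. A ratio of conversions between them is therefore the same per nucleotide or per uridine of the whole hairpin. The clusters are shorter, at 64 to 67 nt, and the uridines within them were not counted. Of the 3p strands, miR-221-3p holds 9 uridines and miR-222-3p holds 6. Over the 139 of 160 hairpins with a cluster in all 3 replicates that matched the RefSeq table by symbol, the median was 83 nt and 22 uridines. Aligned over their whole length, mature strands included, the hairpins were identical at 74 of 122 positions (60.7%). RNAfold, which predicts the fold of lowest free energy, gave -46.5 kcal/mol and a terminal loop of 5 nt with 2 uridines for miR-221. It gave -53.8 kcal/mol and a loop of 11 nt with 6 uridines for miR-222.

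The clusters sat at the same place in every list (the plot of cluster extent). In the hg19 build of the files, the miR-221 cluster was at chrX:45605607-45605671 in replicates 1 and 2 and the series-wide list. In replicate 3 it was 1 nt shorter at its 3' end, the lower coordinate on this minus strand. The miR-222 cluster ran from chrX:45606437-45606502 in replicate 1, with its start or end moved by at most 1 nt in replicates 2 and 3. The files annotate both as exons of noncoding RNA and as miRNA primary transcripts, with nothing on the opposite strand. Among the 160 hairpins with a cluster in all 3 replicates, 15.6% had edges that moved by at most 1 nt.

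**Figure D1:**
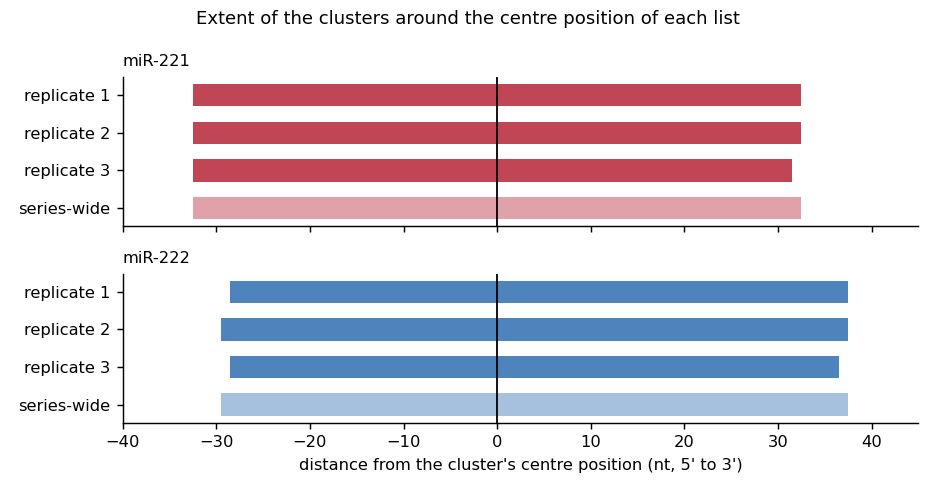
Extent of the miR-221 (upper panel) and miR-222 (lower panel) clusters in the 3 replicate lists and the series-wide list (rows), in nt from the centre position given for each cluster (0 on the horizontal axis), 5' to 3'. Bars span 64 or 65 nt for miR-221 and 65 to 67 nt for miR-222, and their ends differ by at most 1 nt between lists.

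Each list also gives a centre position per cluster, under the name ccr, which the files do not define; in PAR-CLIP these letters usually stand for the crosslink-centred region. It was position 45605639 for miR-221 and 45606474 for miR-222 in all 4 lists, 835 nt apart. Of the 160 shared hairpins, 35.6% had the same centre position in all 3 replicates. The miR-221 centre lay 32 nt from the 5' end of its cluster in each list, close to the middle. The miR-222 centre lay 28 or 29 nt from the 5' end. The span from the start of miR-222-5p to the end of miR-222-3p is 59 nt in RefSeq, against a cluster of 65 to 67 nt. Which arm or loop base the centre falls on is not given, because the hairpin sequences and the clusters are in different builds.

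Both hairpins were heavily converted, and miR-221 was far above miR-222 (the plot of values by replicate). For miR-221 the counts were 14716, 40011 and 39618 conversions in replicates 1, 2 and 3. For miR-222 they were 2542, 4056 and 2278 in the same order. The values of the 2 hairpins did not overlap, and the lowest miR-221 value was the one of replicate 1. The ratio of miR-221 to miR-222 was 5.79, 9.86 and 17.4, or 3.32 ± 0.79 on the log2 scale (SD, n = 3). Of the 38 pairs of hairpins described further below, 73.7% also had the same member higher in all 3 replicates. That is a looser criterion than values without overlap, and the share of pairs without overlap was not counted.

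**Figure D2:**
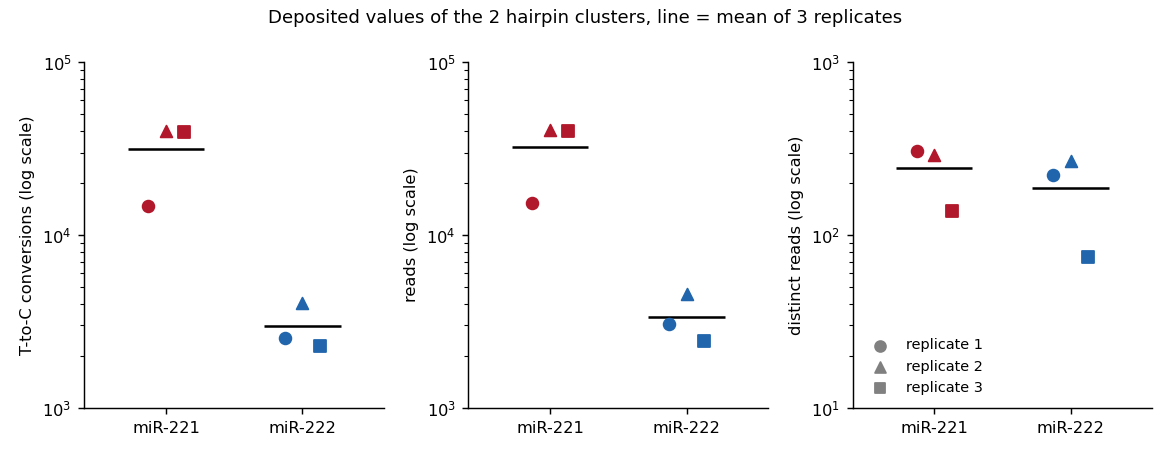
T-to-C conversions, reads and distinct reads (log axes) of the miR-221 and miR-222 clusters, with 1 symbol per replicate and a line at the mean of 3 replicates. Conversions of miR-221 lie between 14716 and 40011 and those of miR-222 between 2278 and 4056, while their distinct reads, 137 to 306 and 75 to 268, overlap.

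Reads gave nearly the same ratio as conversions. miR-221 had 15400, 40687 and 40230 reads in replicates 1, 2 and 3, and miR-222 had 3058, 4533 and 2450. The ratio was 5.04, 8.98 and 16.4, or 3.18 ± 0.85 on the log2 scale (SD, n = 3). Reads in these files include copies made by amplification and by sequencing a library more than once. Such copies cannot be distinguished from different RNA molecules of identical sequence.

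By distinct reads, the files' count of unique reads, the difference was much smaller. miR-221 had 306, 291 and 137 distinct reads in replicates 1, 2 and 3, and miR-222 had 221, 268 and 75. The ranges overlap, although miR-221 was the higher of the pair within each replicate. The ratio was 1.38, 1.09 and 1.83, or 0.49 ± 0.38 on the log2 scale (SD, n = 3). As a share of the pair, miR-221 had 58.1% of distinct reads in replicate 1 (95% exact Clopper-Pearson interval 53.7% to 62.3%). It had 52.1% (47.8% to 56.3%) in replicate 2 and 64.6% (57.8% to 71.0%) in replicate 3. The interval of replicate 2 includes an equal share. All of these intervals cover counting error only and take each distinct read as an independent draw. Distinct reads are sequences counted once, so the intervals are approximate and were not used as a test.

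Beside this, the reads of miR-221 were repeated more often than those of miR-222. miR-221 had 50.3, 139.8 and 294 reads per distinct read in replicates 1, 2 and 3, and miR-222 had 13.8, 16.9 and 32.7. Set against the whole lists, miR-222 was below the value of all clusters (18.6, 17.8 and 33.8) in each replicate, most so in replicate 1, and miR-221 was above it. The median of the 160 shared hairpins was 9.50, 4.55 and 10.6. miR-221 ranked 1 of them in replicates 2 and 3, and 2 in replicate 1. miR-222 was also above this median in each replicate, and ranked 46, 12 and 9 in replicates 1, 2 and 3. Conversions per distinct read were 7.60 ± 2.97 times as high for miR-221 as for miR-222 (SD, n = 3). The part of copying in the difference in conversions was not tested.

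**Figure D3:**
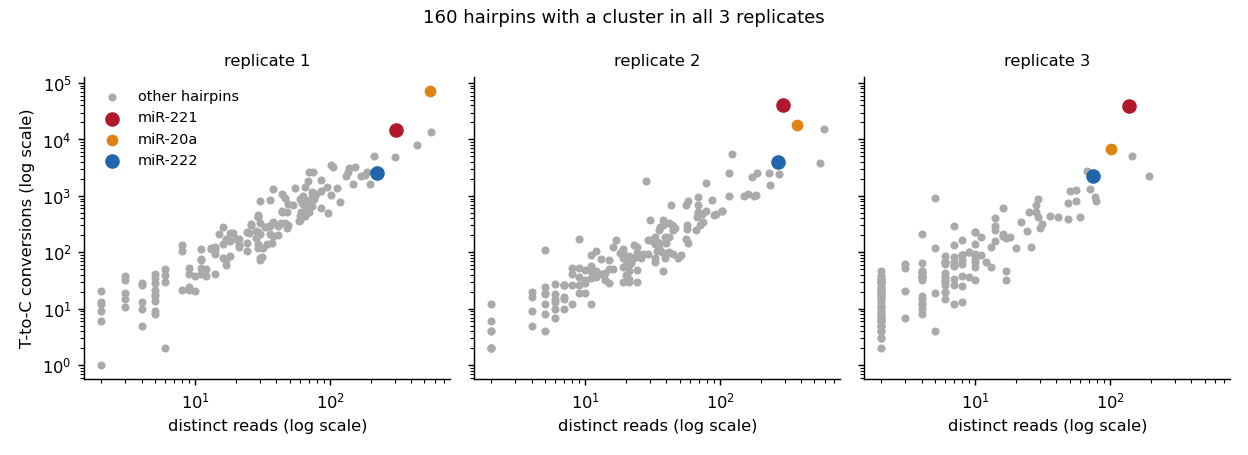
Conversions against distinct reads (both log axes) in each replicate for the 160 hairpins with a cluster in all 3 replicates, with miR-221, miR-222 and miR-20a coloured. miR-221, at 137 to 306 distinct reads, has the most conversions of all in replicates 2 and 3, and miR-222, at 75 to 268 distinct reads, lies lower in each panel.

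Most changes in both clusters were of the crosslink type. T-to-C changes were 97.3%, 98.8% and 99.0% of all edits in the miR-221 cluster and 95.2%, 97.5% and 98.8% in the miR-222 cluster. Conversions per read were 0.956, 0.983 and 0.985 for miR-221 and 0.831, 0.895 and 0.930 for miR-222. miR-221 was thus higher by this measure in each replicate, with no overlap between the groups of values, though both stayed below 1 conversion per read. How many other pairs were apart in this way was not counted. The median of the shared hairpins was 0.897, 0.930 and 1 conversions per read, and 95.9%, 98.2% and 100% T-to-C changes. By both measures miR-222 was below the median in each replicate. miR-221 was above it in replicates 1 and 2 and below it in replicate 3. Conversions fell on 18, 15 and 16 positions in the miR-221 cluster and on 18, 20 and 15 in the miR-222 cluster. The median of the shared hairpins was 7, 6 and 2 positions, and both members ranked within the first 8 in every replicate. Both members also had more distinct reads than the median hairpin (29.5, 23 and 6), and the part of that in the number of positions was not tested.

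miR-221 held a share of the hairpin signal that differed widely between replicates, while the share of miR-222 differed less. In replicates 1, 2 and 3, miR-221 held 7.07%, 30.4% and 48.3% of all hairpin conversions, and its mean was 28.6% ± 20.7 (SD, n = 3). Without replicate 3 the mean was 18.8%. For miR-222 the shares were 1.22%, 3.09% and 2.78%, and the mean 2.36% ± 1.00 (SD, n = 3). Of the conversions in all clusters, miR-221 held 1.13%, 3.77% and 6.65%, a mean of 3.85% ± 2.76 that was 2.45% without replicate 3. On the same base miR-222 held 0.195%, 0.382% and 0.383%. miR-20a, the hairpin with the most conversions in replicate 1, moved the other way over the replicates, at 34.8%, 13.7% and 8.31% of hairpin conversions, and shares of 1 total depend on each other. The highest share of miR-221 was 6.83 times the lowest and that of miR-222 was 2.53 times, against a median of 3.40 over the shared hairpins. By distinct reads miR-221 held 3.14%, 3.32% and 5.51% of the hairpin total and miR-222 2.27%, 3.06% and 3.02%. These differed 1.75-fold and 1.35-fold between replicates, against a median of 1.90, so by distinct reads both varied less than the median hairpin.

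**Figure D4:**
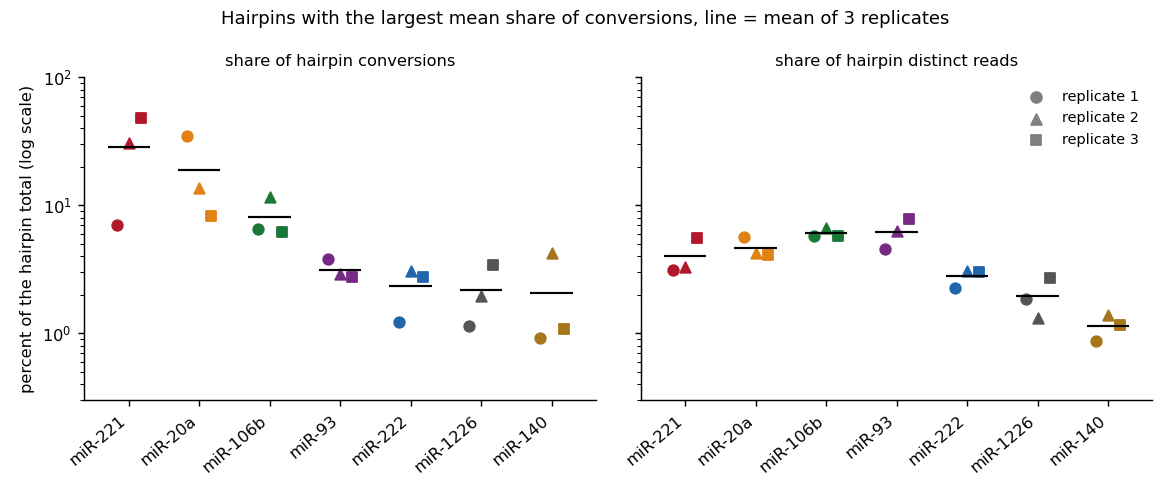
Share of hairpin conversions (left) and of hairpin distinct reads (right), in percent on a log axis, for the 7 hairpins with the largest mean share of conversions, with 1 symbol per replicate and a line at the mean. Shares of conversions of miR-221 run from 7.07% to 48.3% and those of miR-222 from 1.22% to 3.09%, and in the right panel miR-221 runs from 3.14% to 5.51%.

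Of the 386 hairpin names found in any replicate, 160, or 41.5%, had a cluster in all 3, and both members were among them. By mean share of hairpin conversions miR-221 ranked 1 and miR-222 ranked 5 of these. Just below miR-221 stood miR-20a, of the miR-17-92 cluster, at 18.9% ± 14.0, and miR-106b at 8.11% ± 3.07 (SD, n = 3). miR-106b and miR-93, at 3.14% ± 0.55, stood just above miR-222. Just below it were the mirtron miR-1226, at 2.16% ± 1.15, and miR-140, at 2.08% ± 1.88. Between each of these neighbours and its member the means differ by less than the larger of their SDs, except for miR-106b and miR-222. Within each replicate, however, miR-221 was above miR-106b, at 7.07%, 30.4% and 48.3% against 6.51%, 11.7% and 6.17% in replicates 1, 2 and 3. miR-106b was above miR-222 in each replicate too. The order of miR-20a and miR-221, and of miR-93, miR-1226 and miR-140 with miR-222, changed between replicates. Per nucleotide of cluster, miR-221 ranked 2, 1 and 1 among all hairpins of replicates 1, 2 and 3, and miR-222 ranked 14, 6 and 6. By distinct reads the ranks were 4, 4 and 3 for miR-221 and 6, 6 and 7 for miR-222.

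The pair also made up much of what was listed on its chromosome. Together the 2 clusters held 39.5%, 78.4% and 84.0% of all conversions on chromosome X in replicates 1, 2 and 3, where 30, 27 and 18 hairpins were named. The next cluster on the same strand was 14.7 kb away in replicate 1 but 693 kb in replicate 2 and 786 kb in replicate 3. Between the 2 clusters, a gap of 765 nt in replicates 1 and 2 and 766 nt in replicate 3 held no cluster.

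Hairpins that lie close together on 1 strand can come from 1 primary transcript, so the pair was set beside all 38 pairs within 5 kb whose hairpins had a cluster in all 3 replicates, itself included. By mean log2 ratio of conversions, 10 of the other 37 pairs, or 27%, differed more. By distinct reads 29 differed more in either direction, and the median over the pairs was 1.94 on the log2 scale for conversions and 1.19 for distinct reads. The pair thus stood in the upper part of the list by conversions, at rank 11, and in the lower part by distinct reads, at rank 30. Each pair is written with the hairpin of more conversions first, which fixes the sign of the conversion ratio. Several pairs share a hairpin, so they are not independent.

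**Figure D5:**
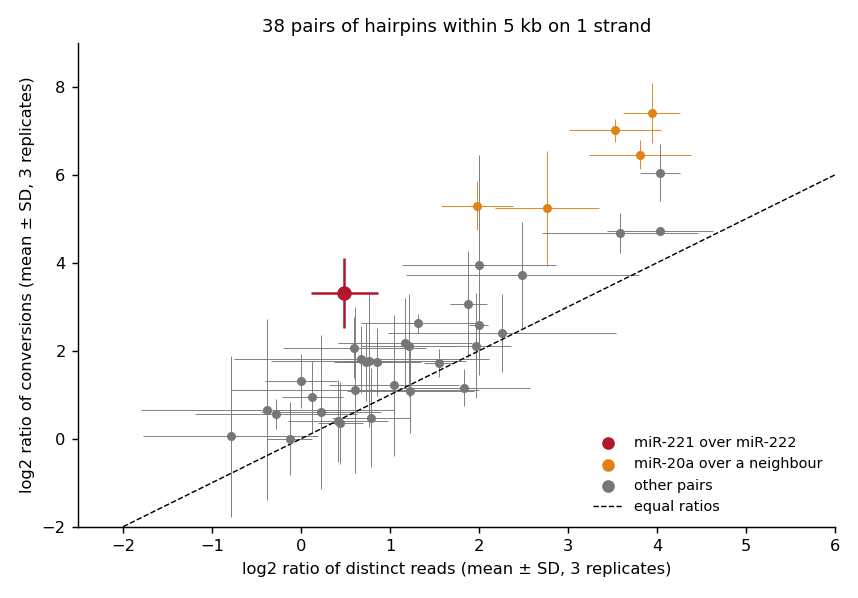
Mean log2 ratio of conversions (vertical axis) against mean log2 ratio of distinct reads (horizontal axis) for the 38 pairs of hairpins within 5 kb on 1 strand, with bars of 1 SD over 3 replicates and a dashed line of equal ratios; each ratio is the hairpin with more conversions over the other, and orange marks pairs led by miR-20a. The pair of miR-221 and miR-222 lies at 0.49 and 3.32, well above the dashed line.

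The 5 pairs with the largest difference in conversions were those of miR-20a with miR-18a (7.41 ± 0.68 on the log2 scale), miR-19b-1 (7.01 ± 0.26), miR-19a (6.45 ± 0.33) and miR-17 (5.29 ± 0.55), and that of miR-106b with miR-25 (6.05 ± 0.65; SD, n = 3). All of these also differed by distinct reads, by 3.94 ± 0.32, 3.53 ± 0.52, 3.81 ± 0.58, 1.97 ± 0.40 and 4.03 ± 0.22 in that order. The difference between the conversion ratio and the distinct-read ratio was 2.83 ± 0.67 on the log2 scale for miR-221 over miR-222. It was larger in 3 of the other pairs, all with miR-20a as the higher member: with miR-19b-1 (3.49), miR-18a (3.47) and miR-17 (3.32).

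The 2 hairpins did not have the most similar pattern to each other across replicates. Likeness was measured as the distance over 3 replicates between log2 shares of hairpin conversions, each centred on its own mean, so small values mean alike. Among 160 hairpins, those most like miR-221 were miR-574 (0.14), miR-148a (0.26) and miR-874 (0.30), and miR-222 came in place 15 (1.12). Those most like miR-222 were miR-4783 (0.19), miR-4763 (0.21) and miR-196a-2 (0.32), and miR-221 came in place 37. Most of these hairpins had far fewer conversions, such as 39, 98 and 92 for miR-574 in replicates 1, 2 and 3 and 38, 51 and 33 for miR-4783. With 3 values per hairpin, this order is only a description.

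The series-wide list held less than the sum of the replicate lists for both hairpins. miR-221 had 70525 conversions there, or 74.8% of its sum of 94345, and miR-222 had 7275, or 82.0% of its sum of 8876. The median over the shared hairpins was 84.5%. With 456 distinct reads for miR-221 and 362 for miR-222, their shares of the summed distinct reads were 62.1% and 64.2%, against a median of 64.7%. The ratio of the pair in this list was 9.69 by conversions and 1.26 by distinct reads, within the range of the replicates in both cases.

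Exon clusters were also counted on mRNAs that miR-221 and miR-222 are known to target, where a cluster marks RNA recovered with DICER, not pairing with a miRNA. Of 23 such mRNAs, 2 (8.70%) had an exon cluster in all 3 replicates, against 4.82% of 20056 protein-coding symbols. In 2 or 3 replicates it was 5 of 23 (21.7%), against 14.7%. When clusters needed at least 3 distinct reads, 1 target was left in all 3 replicates, against 1.03% of symbols. Of the rest, 5 had an exon cluster in 1 replicate and 13 in none. TIMP3, an inhibitor of metalloproteinases, had a cluster in its 5' untranslated region in each replicate, at chr22:33197691-33197754 in replicate 1 (hg19, plus strand). It held 229, 47 and 47 conversions on 25, 14 and 10 distinct reads in replicates 1, 2 and 3, and another gene is annotated on the opposite strand there. The cluster was the same place in each replicate, with overlap in every pair of them.

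The exon clusters of the other targets held 17 distinct reads or fewer per gene and replicate. DDIT4, an inhibitor of mTOR signalling, had 30, 7 and 45 conversions in replicates 1, 2 and 3, but none of its 7 exon clusters overlapped one of another replicate. CDKN1B had 60, 0 and 44 conversions, all in the 3' untranslated region, and 1 place was shared, by replicates 1 and 3 with 3 and 2 distinct reads. TRPS1, a transcriptional repressor, had 39, 73 and 0, with 2 places in the 3' untranslated region shared by replicates 1 and 2. KIT, a receptor tyrosine kinase, had 0, 5 and 29, at different places in its coding sequence.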

How the data were processed

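Bowtie2 2.1.0 and hg19 stand in the submitters' processing notes. The clusters were listed at an estimated false discovery rate of 5%, per the file attributes, and each replicate was sequenced in 2 runs, per the labels. The authors deposited T-to-C conversions as whole-number counts per cluster, not normalised to depth. Reads, distinct reads and annotation come from the deposited attribute text. The authors' entropy score was deposited too and used for no result.

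Values of a hairpin are sums over clusters that name it. Shares are of a list's total of listed clusters or of hairpin clusters, which is not the sequencing depth. No test was made of the members: 3 replicates of 1 group cannot give an exact sign-flip p below 0.25. The members and lists were chosen with earlier results of these data known. Genes named were the members, the 3 nearest patterns, 2 neighbours in rank on each side, up to 5 pairs with a larger difference, and targets with a cluster in at least 2 replicates. The pairs with miR-19b-1, miR-18a and miR-17 are also named by their ratio difference, chosen after the values were seen. Over 160 hairpins, chi-square values between replicates were 309 to 582 for distinct reads (159 degrees of freedom). On this basis no library was treated as a copy of another. Such values cannot tell separate cultures from technical repeats. Sums, pairs and distances were tested on simulated data of 160 hairpins and recovered in 50 of 50 sets. For the distances, the matched hairpins were given the same pattern and high counts. Recovery there does not show how distances behave at the low counts of the nearest patterns. Python 3.11.15, SciPy 1.17.1, Biopython 1.88 and RNAfold 2.7.2 were used; sequences are from RefSeq.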

Additional observations from a re-analysis of the deposited data

How the results depend on the processing

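Of 69 alternatives to the values above, 64 stayed within 1 SD of the replicates or within 1.5 times a count, 5 moved and 0 reversed a direction. Many of the 64 could not move, so this count does not measure robustness. Leaving out 1 of 3 replicates shifts a mean by less than 1 SD whatever the values. Each hairpin had 1 cluster per list and none nearby, so settings that choose, add or filter clusters left the ratios of the pair unchanged. Weighted by distinct reads, the miR-221 share was 0.335% of all distinct reads and 3.99% of hairpin distinct reads, against 3.85% and 28.6% of conversions. Weighted by reads, the miR-222 share of all was 0.208%, against 0.320%. With miR-221 left out of the denominator, an alternative chosen after seeing the data, the miR-222 share of hairpin conversions was 3.71%, against 2.36%. Among clusters with 3 or more distinct reads, 1 of 23 targets kept an exon cluster in all 3 replicates, against 1.03% of protein-coding symbols.

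Leaving out 1 replicate gave log2 ratios of 2.92 to 3.71 for conversions, 2.75 to 3.60 for reads and 0.29 to 0.67 for distinct reads. The miR-221 share was 2.45% to 5.21% of all conversions, lowest without replicate 3, and 18.8% to 39.4% of hairpin conversions. The miR-222 share was 0.288% to 0.382% and 2.00% to 2.93%. Without replicates 1, 2 and 3, a larger difference in conversions was seen in 10 of 39, 10 of 41 and 15 of 52 neighbouring pairs, and 170, 169 and 238 hairpins were shared. In each case 3 of 23 targets had an exon cluster in both of the remaining replicates, against 6.10%, 5.53% and 12.7% of protein-coding symbols. No paired analysis was possible because 1 group leaves no other group to pair with; the ratios of the 2 hairpins are taken within each replicate. Depth limits replicate 3 most, where the median shared hairpin had 6 distinct reads.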
